A study of Mus musculus with 6 samples.

Results

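The 9 genes described here encode the cadherins that matter most for kidney epithelium and the cells around it. They were chosen by name, as a family, with earlier results of these data known. They are Cdh1, Cdh2, Cdh3 and Cdh4 of the classical type I group, Cdh5, Cdh6 and Cdh11 of the type II group, the membrane-anchored Cdh13 and the kidney-specific Cdh16. All 9 were found among the 46517 genes of the files. RNA sequencing was performed on primary renal tubular epithelial cells (RTECs) of wild type FvB mice, with 3 CTL cultures and 3 cultures given 50 ng/ml TGF-β1, a profibrotic cytokine, for 24 h. Cultures of both groups were grown in RPMI with 10% serum and 20 ng/ml EGF and then kept 24 h without serum. The labels give an age of 4 to 6 weeks, while the methods of the study give a slightly younger range and male mice. The labels do not state whether the cultures came from separate mice, so p-values measure the spread between cultures.

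Cadherins are transmembrane proteins that hold neighbouring cells together in the presence of calcium. Their outer repeats bind cadherins of the next cell, and in the classical members the inner tail binds catenins, which connect the junction to actin. Epithelia are usually recognised by Cdh1 (E-cadherin), but the proximal tubule of the kidney also uses Cdh2 (N-cadherin) and Cdh6 (K-cadherin), and tubules along the nephron carry Cdh16 (Ksp-cadherin). A switch from Cdh1 to Cdh2 is a textbook sign of epithelial cells turning mesenchymal under TGF-β1.

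Type I cadherins share the tripeptide His-Ala-Val in the first outer repeat, a long-used hallmark of the group. In the longest protein-coding GENCODE transcript of each gene, translated here from its longest reading frame, His-Ala-Val occurred 1 time in Cdh1, Cdh2, Cdh3 and Cdh4, and 0 times in Cdh5, Cdh6, Cdh11, Cdh13 and Cdh16. The coding stretches below show how the type I members differ from the type II members Cdh6 and Cdh11 at that place, with the 3 codons of the tripeptide in capitals. In Cdh6 and Cdh11 the codons aligned to the Cdh1 tripeptide read Gln-Ala-Val. The first codons in capitals are codon 235 of Cdh1, codon 178 of Cdh3, codon 245 of Cdh4, and codon 129 of both Cdh6 and Cdh11.
Cdh1: atcctctattctCATGCCGTGtcatcaaat
Cdh3: gagctttatggcCACGCTGTAtctgagaat
Cdh4: catctccgagccCACGCGGTGgatatgaac
Cdh6: atccttcgagctCAAGCTGTCaacagaagg
Cdh11: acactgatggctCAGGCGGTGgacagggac

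In GRCm38 the capitals of Cdh1 lie in exon 6, at chr8:106656824-106656850 with the bases around them on the plus strand. The same place is exon 6 of Cdh3 (chr8:106537074-106537100, plus strand) and exon 6 of Cdh4 (chr2:179847220-179847246, plus strand). In these 3 genes the first codon of the printed stretch comes from the end of exon 5. In Cdh6 the whole stretch lies in exon 3 (chr15:13064401-13064430, minus strand), and in Cdh11 in exon 4 (chr8:102673933-102673962, minus strand).

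Of the 9 genes, 6 lie on chromosome 8. Cdh11 (ENSMUSG00000031673.5) spans chr8:102632095-102785642, Cdh5 (ENSMUSG00000031871.8) chr8:104101625-104144511, Cdh16 (ENSMUSG00000031881.5) chr8:104601911-104624396 and Cdh13 (ENSMUSG00000031841.17) chr8:118283733-119324921. Cdh3 (ENSMUSG00000061048.7, chr8:106510891-106557297) and Cdh1 (ENSMUSG00000000303.11, chr8:106603351-106670246) stand in the same orientation, 46053 bp apart. Cdh4 (ENSMUSG00000000305.11) lies at chr2:179442431-179899373, Cdh6 (ENSMUSG00000039385.4) at chr15:13028701-13173675, and Cdh2 (ENSMUSG00000024304.13) on chromosome 18. None of the 9 shared exon bases with another annotated gene.

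Counts on genes summed to between 28313080 and 34183497 per culture. Replicate 2 stood apart in both groups. The summed level of 4 Y-linked genes (Ddx3y, Eif2s3y, Kdm5d and Uty) was 151 CPM (counts scaled to the total of each library) in CTL replicate 2 and 142 CPM in TGF-β1 replicate 2, against at most 0.172 CPM in the other 4 cultures. Xist, which is transcribed from the inactive X chromosome, stood at 237 and 207 CPM in replicate 2 of CTL and TGF-β1, and at 516 to 633 CPM in the other 4. In the other 4 cultures these levels go against the male mice of the study's methods. Replicate 2 held Y-linked transcripts together with Xist in both groups, so it differed from the others in the sex of its cells. The summed level of 10 fibroblast markers was 1034, 2569 and 1062 CPM in CTL replicates 1, 2 and 3. In TGF-β1 replicates 1, 2 and 3 it was 1438, 3359 and 1077 CPM. Most of it came from Col1a1, Col1a2 and Col3a1, which were highest in replicate 2 of both groups, as Pdgfrb and Dcn were. Thy1, in contrast, was lowest in replicate 2 of both groups. Pdgfra was lowest in replicate 2 with TGF-β1 and about level with replicate 1 in CTL. Values without both cultures of replicate 2 are therefore given for the tested cadherins, but not for each partner gene. Deviations from the group means correlated at 0.31, 0.66 and 0.55 between same-numbered CTL and TGF-β1 cultures, and at -0.59 to 0.20 between others. Because deviations cancel out within a group, high same-numbered values push the others down. Each culture is also compared with its same-numbered counterpart, in an edgeR fit that has the replicate number as a block. No label states this pairing. By chi-square per degree of freedom of the counts, CTL replicates 1 and 2 lay nearest to TGF-β1 replicates 3 and 1, at 64.8 and 81.8. Their same-numbered cultures stood at 70.7 and 88.2. By the Y-linked level, however, CTL replicate 2 at 151 CPM was like TGF-β1 replicate 2 at 142 CPM and unlike TGF-β1 replicate 1.

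TGF-β1 lowered 4 of the 8 cadherins that had enough counts to be tested: Cdh13, Cdh16, Cdh4 and Cdh3, from the largest fall to the smallest. None of the 8 rose in the fit without the block, and Cdh1 and Cdh2, the pair of the textbook switch, did not pass the threshold. Across all 15862 genes tested by edgeR's quasi-likelihood test, 6.69% were lower and 5.00% were higher at an adjusted p of 0.05, 11.7% in either direction. With library size as the only scaling, 507 genes were higher and 1467 lower, in place of 793 and 1061, and the same 4 cadherins were lower. The median log2 fold change was -0.50 over the 8 cadherins and -0.0028 over all tested genes. With the replicate block, 19.1% of all tested genes were lower and 15.1% higher, 34.2% in either direction, and 5 cadherins were lower (Cdh1 joined the 4) and 1 was higher (Cdh11). Because RNA was taken from whole cultures, fewer cells of a type and less RNA per cell cannot be told apart in any of these values.

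**Figure D1:**
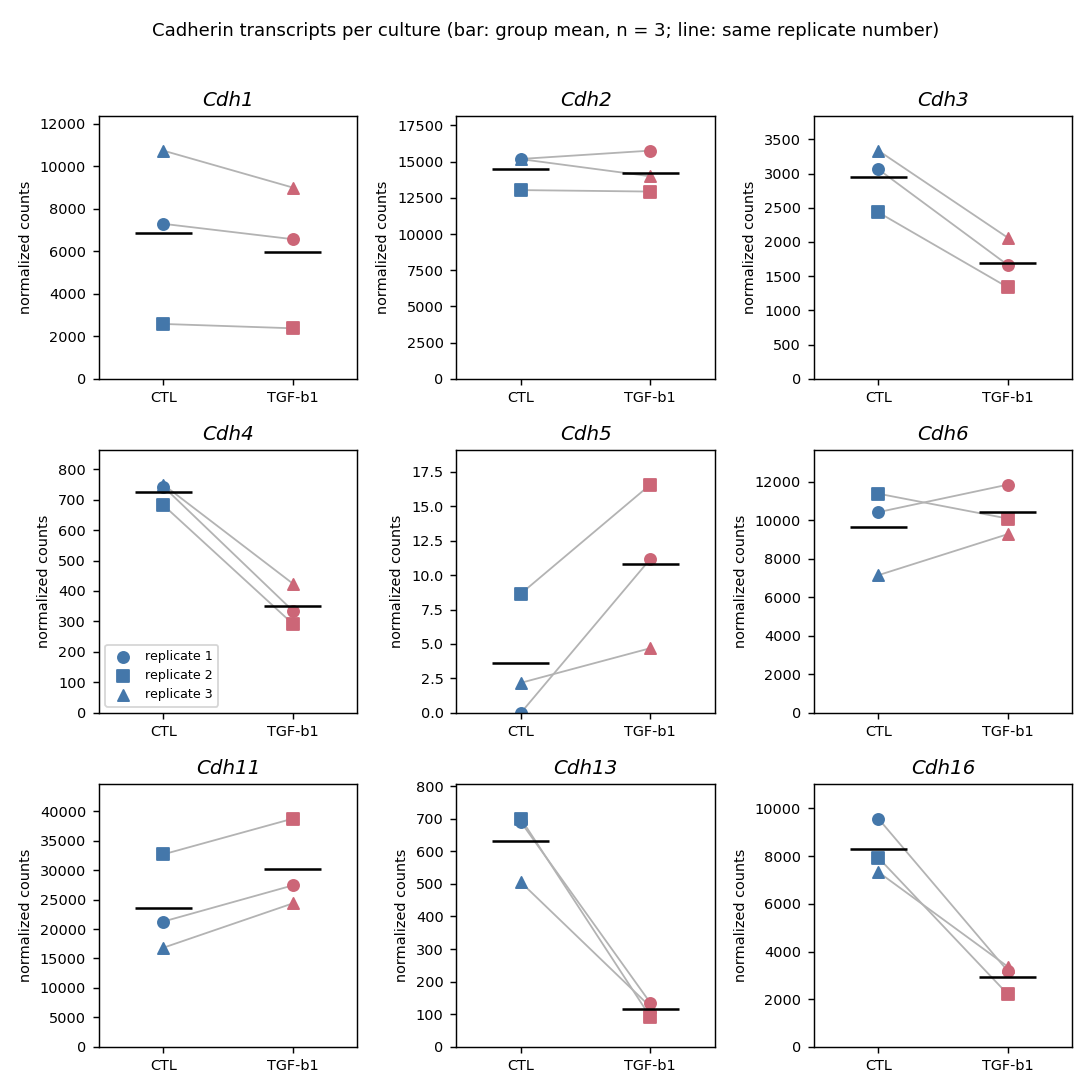
Normalized counts of each cadherin (vertical axis, linear from 0) in CTL (blue) and TGF-β1–treated (red) RTECs, with 1 symbol shape per replicate number, grey lines between same-numbered cultures and black bars at the group means (n = 3). Cdh3, Cdh4, Cdh13 and Cdh16 separated the groups, whereas in Cdh1 the squares of replicate 2 lay far below the other cultures of both groups.

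Cdh16 encodes Ksp-cadherin, which is made almost only in tubule epithelium and, unlike classical cadherins, has a short inner tail. Its normalized counts (counts scaled by edgeR's TMM factors to a common library size) were 9574, 7935 and 7333 in CTL replicates 1, 2 and 3, and 3182, 2206 and 3366 in TGF-β1 replicates 1, 2 and 3. Every treated culture lay under every CTL culture. CTL cultures averaged 8280 ± 1160 and treated cultures 2918 ± 623 (mean ± SD, n = 3 each), a 2.84-fold fall. On the log2 scale the change was -1.50 (SE 0.19) with an edgeR adjusted p of 0.00922, and it stayed between -1.62 and -1.34, past the threshold, when any 1 culture was left out. Without both cultures of replicate 2 it was -1.37 with an edgeR adjusted p of 0.0054.

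Cdh6 encodes K-cadherin, a type II cadherin of the developing nephron and the proximal tubule. It was counted at 10425, 11383 and 7152 in CTL and at 11854, 10091 and 9282 normalized counts in TGF-β1 cultures. The ranges overlapped, and the same-numbered pairs did not move one way, with log2 ratios of 0.19, -0.17 and 0.38. The log2 fold change was 0.11 (95% interval -0.35 to 0.57) with an edgeR adjusted p of 0.753, so a change of 1 log2 unit in either direction lay outside the interval. In the block fit of edgeR without both cultures of replicate 2, it was 0.28 with an adjusted p of 0.00445, against 0.13 and 0.380 with all cultures. Of the kidney cadherins, then, Cdh16 fell and Cdh6 did not pass the threshold with all cultures.

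Cdh1 encodes E-cadherin. Its normalized counts were 7288, 2580 and 10729 in CTL replicates 1, 2 and 3, and 6565, 2376 and 8993 in TGF-β1 replicates 1, 2 and 3. The order of the cultures was the same in both groups, with replicate 2 lowest and replicate 3 highest. Within CTL alone the highest culture was 4.16-fold above the lowest, while each treated culture lay close under its same-numbered CTL culture, at log2 ratios of -0.15, -0.12 and -0.25. The log2 fold change was -0.20 (95% interval -1.76 to 1.36, SE 0.64) with an edgeR adjusted p of 0.873, an interval that reached beyond 1 log2 unit in both directions. Leaving out both cultures of replicate 2 gave -0.21 with an edgeR adjusted p of 0.608. The edgeR fit with the replicate block gave -0.18 (95% interval -0.28 to -0.071) with an adjusted p of 0.0195, but the adjusted p was 0.153 without the cultures of replicate 1, 0.00933 without replicate 2 and 0.0931 without replicate 3. Replicate 2, where Cdh1 was lowest, also held the highest summed fibroblast markers, mostly collagen genes, in both groups. Their part in the spread of Cdh1 was not tested.

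Cdh2 encodes N-cadherin. It was one of the steadiest members, at 15189, 13038 and 15177 normalized counts in CTL and 15764, 12936 and 13992 in TGF-β1–treated RTECs. The groups overlapped fully. Its log2 fold change was -0.024 (SE 0.099, 95% interval -0.26 to 0.21) with an edgeR adjusted p of 0.903. With the replicate block the interval narrowed to -0.14 to 0.093, and without both cultures of replicate 2 the change was -0.028. A rise of Cdh2 larger than 0.21 on the log2 scale thus lay outside both intervals.

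Cdh3 encodes P-cadherin, the neighbour of Cdh1 on chromosome 8, known from basal epithelial layers. It was counted at 3062, 2432 and 3336 in CTL and at 1664, 1337 and 2063 normalized counts in TGF-β1 cultures, without overlap. Replicate 2 was the lowest culture in both groups, as it was for Cdh1. The log2 fold change was -0.80 (SE 0.19) with an edgeR adjusted p of 0.0461, close to the threshold. Only 2 of 6 edgeR fits that left out 1 culture kept it past the threshold (adjusted p 0.0441 to 0.162, log2 fold change -0.97 to -0.66), and without any filter on low counts the adjusted p was 0.120. Leaving out both cultures of replicate 2 gave -0.78 with an edgeR adjusted p of 0.0119, and the block gave -0.81 with 3.03e-05.

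Cdh4 encodes R-cadherin, which is made in the developing kidney and brain. Its normalized counts were 743, 682 and 749 in CTL and 335, 292 and 424 in TGF-β1–treated RTECs. CTL cultures differed by no more than 1.10-fold, and all treated cultures lay well under them. The log2 fold change was -1.05 (SE 0.14) with an edgeR adjusted p of 0.0107, a 2.06-fold fall. The call held in 4 of 6 edgeR fits that left out 1 culture, with an adjusted p of 0.0601 when CTL replicate 1 was omitted and 0.0583 when the treated replicate 1 was omitted. Without both cultures of replicate 2 the change was -0.97 with an edgeR adjusted p of 0.00734. Of the type I group, then, Cdh3 and Cdh4 fell while Cdh1 and Cdh2 did not pass without the block.

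Cdh11 encodes OB-cadherin, a type II cadherin of mesenchymal cells such as fibroblasts and osteoblasts. It stood at 21270, 32673 and 16825 normalized counts in CTL and 27401, 38727 and 24348 in TGF-β1 cultures. The groups overlapped, but each treated culture was above its same-numbered CTL culture, at log2 ratios of 0.37, 0.25 and 0.53. Without the block its log2 fold change was 0.35 (SE 0.29, 95% interval -0.35 to 1.06) with an edgeR adjusted p of 0.476, and 0.44 with 0.0778 when both cultures of replicate 2 were left out. With the replicate block it was 0.38 (SE 0.063) with an edgeR adjusted p of 0.00262, and it remained past the threshold without the cultures of replicate 1 (0.042), 2 (0.000378) or 3 (0.000511). Replicate 2 was the highest culture in both groups, the reverse of its place for Cdh1. The summed fibroblast markers, mostly collagen genes, were also highest there. Of the 8 fibroblast markers tested none passed the edgeR threshold without the block and 4 passed with it, beside 34.2% of all tested genes. With the block the collagen genes Col1a1 and Col1a2 were higher, at 0.37 and 0.73 on the log2 scale with edgeR adjusted p-values of 0.00629 and 0.0144, and Pdgfrb and Dcn were lower, at -0.86 and -1.21 with 0.000431 and 0.0256. Their part in the level of Cdh11 was not tested.

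Cdh5 encodes VE-cadherin, the cadherin of endothelial junctions, and was close to absent. It had 0, 9 and 2 counts in the CTL cultures and 11, 16 and 5 counts in the TGF-β1 cultures, too few for the main test. Each treated culture was above its same-numbered CTL culture. An edgeR fit without the filter gave a log2 fold change of 1.52 (95% interval -0.47 to 3.51) with an adjusted p of 0.446. With so few counts the interval was too wide to decide whether Cdh5 changed. The 12 endothelial markers summed to 6.37 to 12.05 CPM in CTL and 6.22 to 10.4 CPM in TGF-β1 cultures. Cldn5 was at 0 counts in all 6 cultures, and none of the 6 endothelial markers tested passed the threshold without the block. Esam, an adhesion molecule of endothelial junctions, stood at -1.20 on the log2 scale with an edgeR adjusted p of 0.0522, and 0.00453 with the block.

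Cdh13 encodes T-cadherin, which has no inner tail and is held in the membrane by a lipid anchor, and which binds adiponectin and low-density lipoproteins. It fell the most of the tested members. Its normalized counts were 690, 700 and 505 in CTL and 135, 92.2 and 123 in TGF-β1–treated RTECs. The lowest CTL culture was thus well above the highest treated culture. TGF-β1 changed Cdh13 by -2.43 on the log2 scale (SE 0.20) with an edgeR adjusted p of 0.00318, a 5.40-fold fall. The value ranged from -2.57 to -2.30 when 1 culture was left out, and was -2.21 with an edgeR adjusted p of 0.00267 without both cultures of replicate 2. T-cadherin is also abundant in vascular endothelium, whose 12 markers summed to no more than 12.05 CPM in any culture, and the part of endothelial cells in the fall was not tested.

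**Figure D2:**
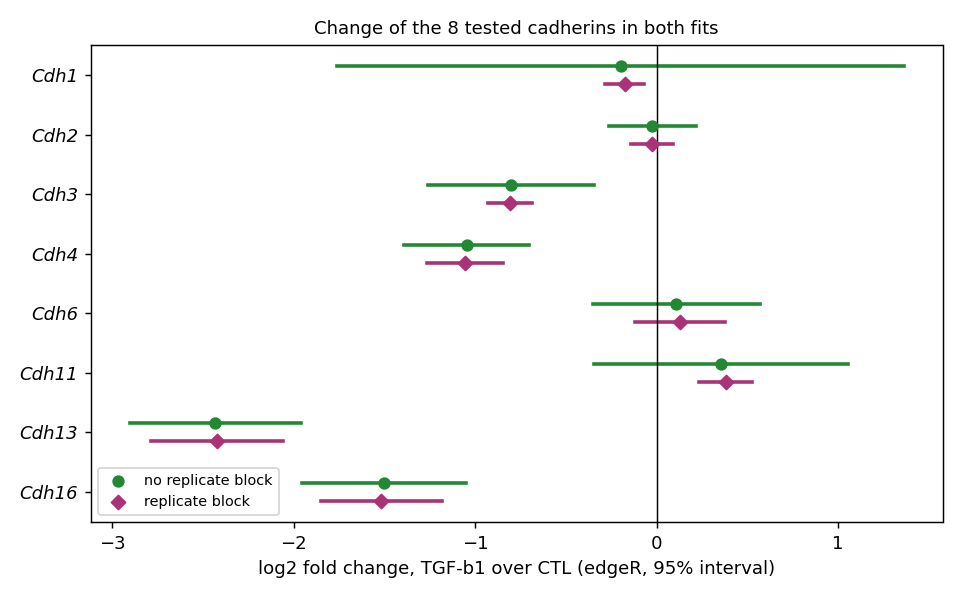
Log2 fold changes of the 8 tested cadherins (horizontal axis, TGF-β1 over CTL) with 95% intervals from edgeR without (green circles) and with (purple diamonds) the replicate block. The estimates of both fits lay close together, and the intervals of Cdh1 and Cdh11 narrowed most with the block, from -1.76 to 1.36 down to -0.28 to -0.071 for Cdh1.

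Leaving out replicate 1 in both groups was the omission that cost the most. The edgeR fit of the remaining 4 cultures without the block called 0 genes of any kind, with 1938 genes under an unadjusted p of 0.05, and therefore none of the 4 cadherins. Their log2 fold changes in that fit were -2.48 for Cdh13, -1.45 for Cdh16, -0.997 for Cdh4 and -0.76 for Cdh3. With the block, 4 cadherins were lower in the same 4 cultures. Without replicate 3 in both groups, Cdh13 and Cdh4 were the 2 that passed without the block. The sizes of the falls therefore moved little, and the p-values moved a lot.

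To compare levels between genes, normalized counts were divided by the length of the exons of each gene. In CTL, Cdh11 had the highest mean, at 2649 counts per kb (1890 to 3670), followed by Cdh16 at 2184 (1934 to 2525), Cdh2 at 1794 (1616 to 1883), Cdh1 at 1501 (564 to 2346) and Cdh6 at 1070 counts per kb (793 to 1261). Of these neighbours only Cdh16 and Cdh2 did not overlap. Cdh16 lay above Cdh11 in CTL replicates 1 and 3, as Cdh1 did in replicate 3. The orders and overlaps in this paragraph hold for the union of exons. By that length, the mean CTL log2 ratio to Cdh1 was 0.48 for Cdh2 and 0.76 for Cdh16. By the longest protein-coding transcript these ratios were 1.17 and 1.09, so that Cdh2 stood above Cdh16. With TGF-β1, Cdh11 again had the highest mean, at 3387 counts per kb (2735 to 4349), and lay above each other member in all 3 treated cultures. Cdh2 at 1764 (1604 to 1954), Cdh1 at 1307 (520 to 1966) and Cdh6 at 1153 counts per kb (1029 to 1314) followed and overlapped with their neighbours in this order. Cdh16 stood under Cdh6 without overlap, at 770 counts per kb (582 to 888). By mean, Cdh16 was next to Cdh11 in CTL and lay under Cdh11, Cdh2, Cdh1 and Cdh6 with TGF-β1. In TGF-β1 replicate 2, however, Cdh16 lay above Cdh1, at 582 against 520 counts per kb. Cdh3 came next in both groups without overlap, at 671 counts per kb in CTL and 385 with TGF-β1. Cdh4 (40.3 to 103), Cdh13 (8.21 to 62.3) and Cdh5 (0 to 3.94 counts per kb over all cultures) were far lower.

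The makeup of the cadherin pool shifted between the groups. Cdh16 made up 21.7% ± 2.28 (SD, n = 3) of the summed counts per kb of the 9 genes in CTL and 8.69% ± 1.66 in TGF-β1–treated RTECs. Cdh11 made up 26.4% ± 9.32 in CTL and 38.6% ± 10.9 with TGF-β1. In the single cultures Cdh11 reached 23.0%, 37.0% and 19.4% in CTL and 33.97%, 51.0% and 30.8% with TGF-β1, so that both groups overlapped. The share of Cdh1 was 15.0% ± 9.19 in CTL and 14.7% ± 8.07 with TGF-β1, and that of Cdh2 17.9% ± 1.51 and 20.0% ± 1.44. The sum itself was 9753 to 10407 counts per kb in CTL and 8530 to 9060 with TGF-β1. These shares are parts of 1 whole, so a fall of Cdh16 alone raises the shares of the others.

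**Figure D3:**
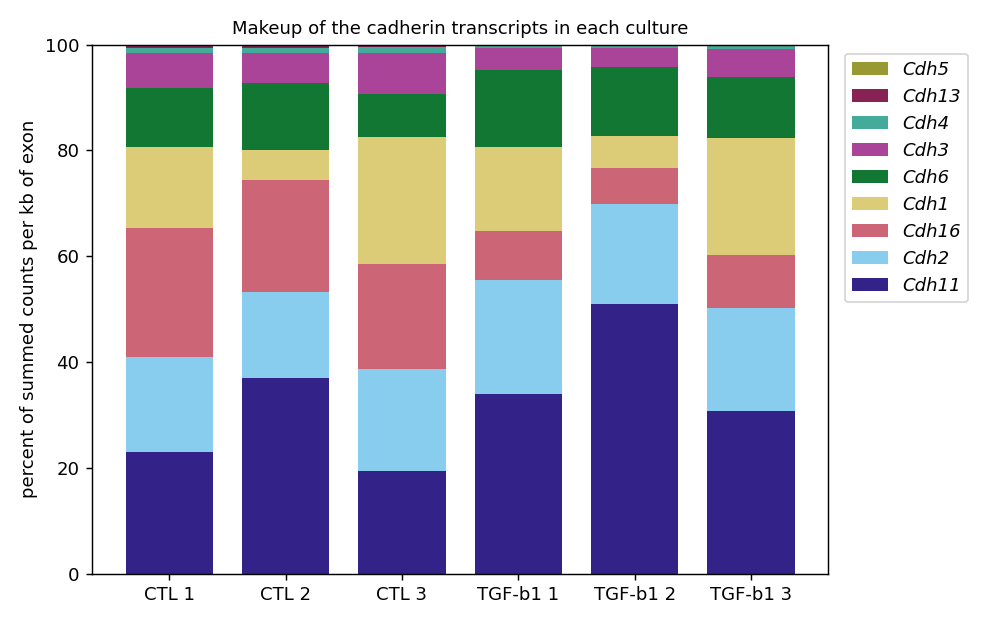
Share of each cadherin in the summed normalized counts per kb of exon (vertical axis, percent) in the 6 cultures. The Cdh16 band shrank from between 19.8% and 24.3% in CTL to between 6.82% and 9.98% with TGF-β1, and the Cdh1 band was narrowest in replicate 2 of both groups (5.69% and 6.09%).

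The textbook switch was also tested as a ratio within each culture, which does not depend on library scaling. The log2 ratio of Cdh2 to Cdh1 per kb was 0.24, 1.52 and -0.32 in CTL and 0.45, 1.63 and -0.18 in TGF-β1–treated RTECs. It was larger in the treated culture of all 3 same-numbered pairs, by 0.20, 0.11 and 0.14. The spread between replicates was several times larger, and the group means differed by 0.15 (exact permutation test, two-sided, p = 0.7). With 3 cultures against 3, the smallest p this test allows is 0.1, and pairing by replicate number gave 0.25, the smallest that 3 pairs allow in an exact two-sided test.

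Of the kidney cadherins, the log2 ratio of Cdh16 to Cdh1 fell by 1.34 (exact permutation test, two-sided, p = 0.2), with -1.44, -1.73 and -0.87 in the same-numbered pairs. The ratio of Cdh6 to Cdh1 was higher by 0.30 on the log2 scale (exact permutation test, two-sided, p = 0.8), with 0.34, -0.055 and 0.63 in the pairs. Adjusted over the 3 ratios, the exact p-values were 0.8, 0.6 and 0.8 for Cdh2, Cdh16 and Cdh6. None of these ratio tests could pass 0.05 in this design.

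The catenins carry the tail of classical cadherins to actin. Of 8 tested, 1 rose and 1 fell without the block, and 4 rose and 2 fell with it, at a median log2 fold change of 0.15. Over all tested genes, 11.7% passed without the block and 34.2% with it, and these shares apply to each list below. Jup, which encodes plakoglobin, a catenin of junctions and desmosomes, rose from 12330, 9999 and 14491 normalized counts in CTL to 20192, 16681 and 22137 with TGF-β1, a log2 fold change of 0.68 with an edgeR adjusted p of 0.0492. Ctnnd2, which encodes δ-catenin, fell by 0.76 on the log2 scale with an edgeR adjusted p of 0.0487. Both calls were close to the threshold and each held in only 1 of 6 edgeR fits that left out 1 culture. Ctnna1 (α-catenin) and Ctnnb1 (β-catenin), the core of the complex, had log2 fold changes of 0.16 and 0.14 with edgeR adjusted p-values of 0.310 and 0.409, and with the block 0.034 and 0.0586. Ctnnd1 (p120-catenin), which keeps cadherins at the surface, stood at 0.33 with an edgeR adjusted p of 0.219, and 0.00129 with the block. The remaining members called only with the block were Ctnna2, near 0 in every culture at no more than 22.8 normalized counts, and Pkp4 at -0.33, with edgeR adjusted p-values of 0.0248 and 0.00375 there and 0.224 and 0.137 without it.

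Actin linkers and nectins build the same junction next to cadherins. Of 10 tested, none rose and 1 fell, Nectin2, at 4847, 4376 and 5766 normalized counts in CTL and 2709, 2437 and 3093 with TGF-β1. Its log2 fold change was -0.86 with an edgeR adjusted p of 0.0138. With the block 2 rose (Nectin1 and Nectin4) and 4 fell, among them Afdn, the afadin gene whose product ties nectins to actin, at -0.57 with an edgeR adjusted p of 0.000139. Lima1 and Camsap3, whose products link junctions to actin and to microtubules, stood at -0.32 and -0.15 with edgeR adjusted p-values of 0.449 and 0.699, and with the block of 0.00252 and 0.0433. The median of the list was -0.086 on the log2 scale.

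Genes that process or remove cadherins showed 1 rise without the block and 3 with it among 9 tested, and no fall in either fit. These counts were near the 11.7% and 34.2% called over all tested genes. The median log2 fold change of the list was 0.13. Furin, the protease that trims the precursor of classical cadherins, rose from 9015, 8131 and 9611 normalized counts in CTL to 13520, 12139 and 12925 with TGF-β1. The groups did not overlap, and the log2 fold change was 0.53 with an edgeR adjusted p of 0.0131. Mmp9 and Mmp14, matrix proteases, had log2 fold changes of 1.17 and 0.54 with edgeR adjusted p-values of 0.0730 and 0.127, and with the block of 1.2e-05 and 0.000185.

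Factors known to repress Cdh1 did not move one way. Of 9 tested, 1 rose and none fell without the block, and 5 rose and 2 fell with it, at a median log2 fold change of 0.19. Snai1, which encodes the repressor Snail, had few counts and rose from 28.0, 37.5 and 39.3 normalized counts in CTL to 64.0, 82.9 and 60.1 with TGF-β1. Its log2 fold change was 0.98 with an edgeR adjusted p of 0.0379, a call that held in 0 of 6 edgeR fits with 1 culture left out. Zeb1, Tcf4 and Klf8 stood at 0.30, 0.53 and 0.72 on the log2 scale with edgeR adjusted p-values of 0.476, 0.0857 and 0.133, and with the block of 0.00762, 8.45e-05 and 0.00198. Twist1 and Snai2 stood at -0.88 and -0.43 on the log2 scale with edgeR adjusted p-values of 0.0515 and 0.575, and with the block of 0.007 and 0.0161.

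Of 12 activators of epithelial and renal genes tested, none rose and 2 fell without the block, and none rose and 7 fell with it, at a median log2 fold change of -0.41. Pax8, a factor of kidney and thyroid development, fell from 6704, 6807 and 6090 normalized counts in CTL to 4148, 3568 and 3748 with TGF-β1. Its log2 fold change was -0.77 with an edgeR adjusted p of 0.00436, and the call held in all 6 edgeR fits that left out 1 culture. Klf4 fell by 0.45 on the log2 scale with an edgeR adjusted p of 0.0499, which held in none of these 6 fits. Gata3 and Grhl2 stood at -1.14 and -0.35 on the log2 scale with edgeR adjusted p-values of 0.126 and 0.739, and with the block of 0.00184 and 0.00268.

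**Figure D4:**
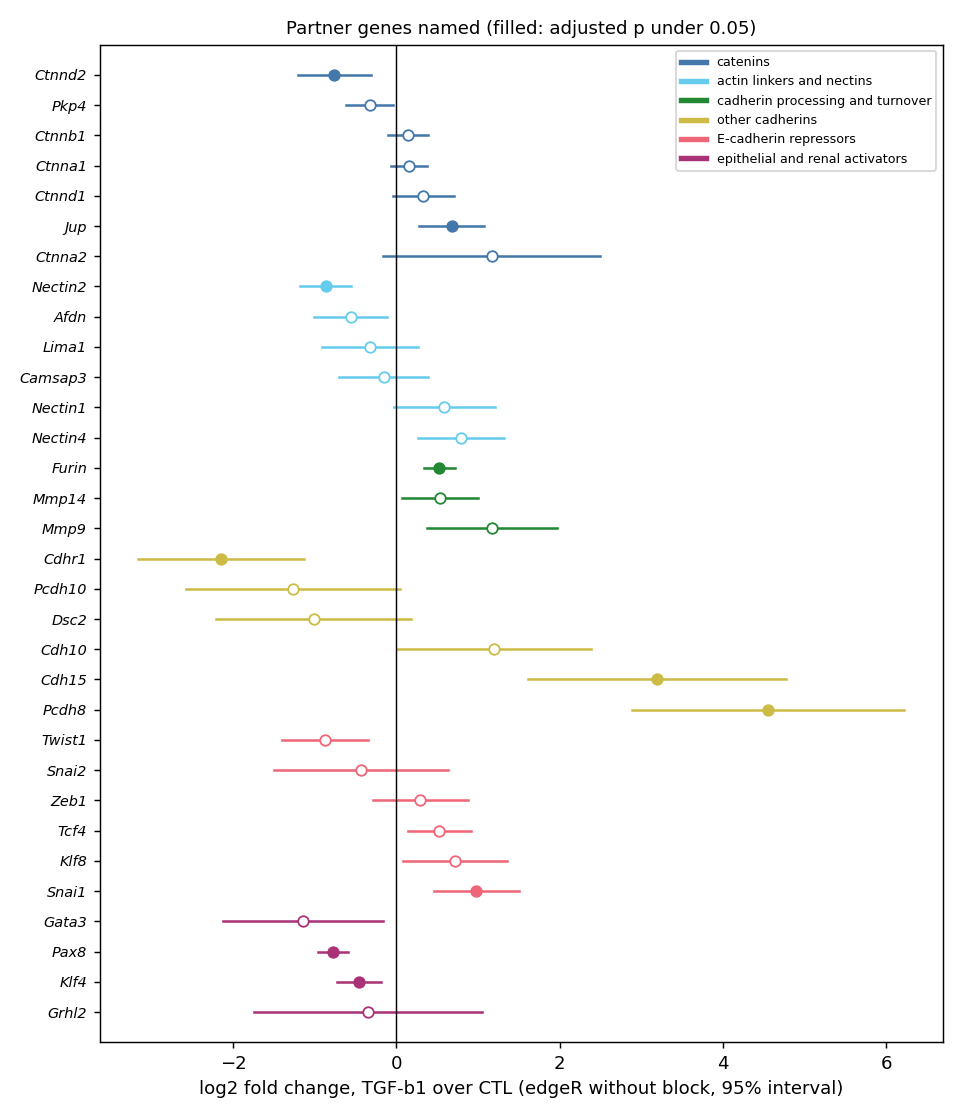
Log2 fold changes (horizontal axis, TGF-β1 over CTL, edgeR without the block, 95% intervals) of the named partner genes, coloured by list, with filled circles for an adjusted p under 0.05. Pcdh8 at 4.55 and Cdh15 at 3.19 stood farthest to the right, and Cdhr1 at -2.14 farthest to the left.

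Among 48 other genes of the cadherin superfamily, 27 were tested, of which 3 rose and 1 fell without the block, and 8 rose and 7 fell with it, at a median log2 fold change of 0.18. Pcdh8, a protocadherin best known from synapses, rose from 5.79, 13.5 and 8.72 normalized counts in CTL to 178, 395 and 93.9 with TGF-β1, a log2 fold change of 4.55 (SE 0.68) with an edgeR adjusted p of 0.0144. Cdh15, the M-cadherin of muscle, rose from 7.73, 0.961 and 7.63 to 56.9, 23.8 and 68.5 normalized counts, at 3.19 (SE 0.65) with an edgeR adjusted p of 0.0320. Both began near 0, and the calls held in 4 of 6 edgeR fits that left out 1 culture for Pcdh8 and in 1 of 6 for Cdh15. Cdhr1, a photoreceptor cadherin, fell from 412, 651 and 272 to 89.4, 146 and 67.6 normalized counts, at -2.14 with an edgeR adjusted p of 0.0291, a call that held in 2 of 6 such fits. Clstn2, a calsyntenin outside the naming rule, was the third to rise, at 0.72 with an edgeR adjusted p of 0.0431. Dsc2, a desmosomal cadherin, was lowest in replicate 2 of both groups like Cdh1, and its log2 fold change was -1.01 with an edgeR adjusted p of 0.237, and 2.82e-05 with the block. Cdh10 and Pcdh10 stood at 1.20 and -1.27 with edgeR adjusted p-values of 0.174 and 0.186, and with the block of 0.000425 and 0.0454.

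The genes whose levels followed a cadherin most closely over the 6 cultures were searched among 10908 genes with a mean of at least 5 CPM, by Pearson's r of log2 CPM. For Cdh1 they included Cdcp1 (r = 0.999) and Tnk1 (0.998), and 284 genes reached an r of 0.95. For Cdh16 they were St6galnac2 (r = 1.00), Gabarapl1 (0.998) and Lgals3 (0.998), and 434 genes reached 0.95. For Cdh6 they were Mepce (r = 0.989), Ighmbp2 (0.984) and the identifier ENSMUSG00000100214.1 (0.983), and 23 genes reached 0.95. The 6 points share treatment and replicate number, so these values describe a shared pattern over the cultures.

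Segment markers bear on which tubule cells the cadherins came from. The proximal tubule markers Slc34a1, Slc5a2 and Miox and the collecting duct water channel Aqp2 were at no more than 11 normalized counts in any culture. The 10 proximal tubule markers summed to 77.9 to 93.6 CPM in CTL and 36.1 to 49.9 CPM with TGF-β1, most of it Lrp2. Of the 4 tested 2 fell, Lrp2, the endocytosis receptor megalin, and Aqp1, a water channel. Cubn and Slc5a12 did not pass, at 0.093 and -1.22 on the log2 scale with edgeR adjusted p-values of 0.698 and 0.189. The 9 collecting duct markers summed to 9.80 to 22.7 CPM in CTL and 30.0 to 57.5 CPM with TGF-β1, most of it Hsd11b2, which encodes a steroid dehydrogenase and was the 1 of 2 tested that rose. The other, the sodium channel gene Scnn1g, stood at -1.77 on the log2 scale with an edgeR adjusted p of 0.0844, and 0.00845 with the block. The 9 markers of the thick ascending limb and distal tubule summed to 500.1 to 567 CPM in CTL and 519 to 536 CPM with TGF-β1, most of it Wnk1, and Umod and Slc12a1 were under 63 normalized counts. None of the 4 tested of that list passed the threshold without the block, and 2 were lower with it, Umod and Ppp1r1a, with edgeR adjusted p-values of 0.0446 and 0.0098. The proximal sums were lower in every treated culture than in every CTL culture, as Cdh16 was, and their part in its fall was not tested. The 6 podocyte markers summed to 454 to 703 CPM in CTL and 365 to 425 CPM with TGF-β1, with Nphs1 near 0. None of the 4 tested passed without the block, while all 4 were lower with it, beside 19.1% of all tested genes. The 6 leukocyte markers summed to 6.57 to 9.30 CPM and 4.22 to 8.05 CPM, and of the 5 tested 1 fell, the macrophage receptor gene Csf1r. The 7 smooth muscle and pericyte markers summed to 533 to 595 CPM in CTL and 589 to 705 CPM with TGF-β1, and of the 6 tested 1 fell without the block, Des, which encodes desmin. With the block Des fell as well and 3 rose, Cspg4, Mcam and Myh11, at 1.05, 0.41 and 0.94 on the log2 scale with edgeR adjusted p-values of 1.88e-05, 0.0137 and 0.018.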

How the data were processed

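RNA of 3 CTL and 3 TGF-β1–treated RTEC cultures (100 ng per library, poly(A) selected) was analysed. The authors trimmed reads with Trim Galore, aligned them to GRCm38 with STAR 2.4.1d and counted them per gene with HTSeq 0.6.1, per the labels. The deposited values are whole-number read counts without normalization. HTSeq's default leaves out reads that map to several places, so near-identical genes can be undercounted.

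GENCODE M21 named 46005 of 46517 identifiers. Counts were tested in R 4.3.3 with edgeR 4.0.16 (filterByExpr by group, TMM, robust glmQLFit, glmQLFTest, two-sided, Benjamini-Hochberg over 15862 genes, threshold 0.05). Intervals of fold changes come from these fits and include the spread between cultures. The fit was tested on simulated data. The study compares unpaired groups, so the replicate number was a block only in an alternative. Deviations from group means correlated at 0.31, 0.66 and 0.55 between same-numbered cultures, which, with the labels' numbers, is where the pairing comes from. Per kb values used the union of exons. Ratios used exact permutation tests. The members and gene lists were chosen with earlier results of these data known. Named genes were all members, Ctnna1, Ctnnb1, Jup, Ctnnd1, list genes past the threshold with or without the block (the 6 largest changes where a list had more), and the 3 genes most correlated with Cdh1, Cdh6 and Cdh16. A few genes that this rule names are not reported here. Alternatives were DESeq2 1.42.0, RLE or library size scaling, 2 other filters, the block, and leaving out cultures or pairs. The block with 1 pair left out, and per kb values by the longest protein-coding transcript, were added after seeing the data. Figures were drawn with matplotlib.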

Additional observations from a re-analysis of the deposited data

How the results depend on the processing

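Without the block, 4 cadherins were lower and 0 higher. The count lower was 4 under RLE, library size only, DESeq2 and at least 10 counts in every library, and 3 without a filter, and it was 2 to 4 with 1 culture left out, 0 without replicate 1 in both groups and 2 without replicate 3 in both groups. With the replicate block 1 cadherin was higher, and 1, 2 and 2 without replicates 1, 2 and 3. Partner list genes (6 higher and 5 lower) came to 14 and 9 with DESeq2, 22 and 22 with the replicate block, and 3 higher with at least 10 counts in every library. They ranged from 0 to 4 higher and from 1 to 4 lower with 1 culture left out. Without both cultures of replicates 1, 2 and 3, 0, 18 and 0 were higher and 0, 8 and 2 lower, and with the block 15, 27 and 21 were higher and 12, 20 and 21 lower. Among fits with 1 culture left out, some values changed sign. Not all of them were near 0 with all cultures, as Snai2 stood at -0.43, Grhl2 at -0.35 and the Cdh6 to Cdh1 ratio at 0.30. The log2 ratio of Cdh2 to Cdh1 ranged from -0.35 to 0.67 (-0.25 without CTL replicate 3) and of Cdh6 to Cdh1 from -0.33 to 1.03 (-0.24 without TGF-β1 replicate 2). The fold change of Cdh1 ranged from -0.62 to 0.28 (0.17 without TGF-β1 replicate 2), of Cdh2 from -0.10 to 0.035 (0.012 without CTL replicate 1 or 3) and of Cdh6 from -0.067 to 0.24. Camsap3 ranged from -0.31 to 0.018, Snai2 from -0.86 to 0.028 and Grhl2 from -0.82 to 0.054. Without both cultures of replicate 3, Cdh2 was at 0.025, and at 0.022 with the block. The cause was not tested. By the longest protein-coding transcript, the CTL log2 ratio of Cdh2 to Cdh1 was 1.17 in place of 0.48.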
